A study of Mus musculus with 8 samples.

Results

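The 10 genes described here encode proteins of the proteoglycan and cartilage-like extracellular matrix, or make or control that matrix: Comp, Cilp, Prg4, Lum, Ogn, Optc, Cytl1, Agrn, Has2 and Runx2. They were chosen by name from the 1329 genes of the deposited table, with earlier results of these data known. The mice were Fbn1 mgR/mgR, a model of Marfan syndrome with too little fibrillin-1, and RNA was taken from the ascending aorta. The mice behind the 4 DT-061 libraries received DT-061, a small molecule activator of protein phosphatase 2A, by mouth at 5 mg/kg, 2 times a day. Those behind the 4 Vehicle libraries received only the solvent (N,N-dimethylacetamide, Kolliphor HS-15 and water) on that schedule. In both groups dosing began at 5 weeks of age and lasted 4 weeks. Both groups carry the Fbn1 mutation, and no wild-type aorta was analysed here. The comparison asks how the drug alters the transcripts of the diseased aortic wall. No label says whether each library came from its own mouse, so p-values measure only the spread between these libraries, which may be technical.

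Proteoglycans are core proteins that carry sulfated sugar chains. The small leucine-rich ones sit on collagen fibrils and regulate their assembly, while hyaluronan and the large proteoglycans hold water and let tissue resist compression. In cartilage these molecules dominate the matrix, and in the aorta they fill the space between elastic lamellae and smooth muscle cells. A build-up of proteoglycan in the media is a known feature of thoracic aortic aneurysm.

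Of the 10 genes, 4 were higher and 6 lower in the aortas of mice given DT-061. Prg4, which encodes the joint lubricant lubricin, was 4.54-fold lower, Has2, a hyaluronan synthase, 4.29-fold lower and Comp, a cartilage glycoprotein, 4.05-fold lower. Optc, which encodes opticin, was 2.50-fold higher and Cytl1, a secreted protein known from cartilage, 2.19-fold higher. Values are FPKM, fragment counts scaled by gene length and library size, which compare genes per length. A fold is the mean FPKM of one group divided by that of the other. All 10 passed limma's test at an adjusted p under 0.05 over the whole table, so rose and fell are used of each below. By its name, the table holds genes that were significant between these groups, and 95.4% of its genes passed, 30.4% higher and 65.0% lower with DT-061. Passing is therefore not independent evidence. The groups were fully separate in 9 of the 10 genes, 4 higher and 5 lower with DT-061, against 78.3% of the table (30.1% higher and 48.2% lower). The median log2 change was -0.54 over the 10 genes and -0.58 over the table.

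Libraries held 14.1 to 22.2 M fragments (M for mega), as estimated from the FPKM that 1 fragment adds. DT-061 library 3 and Vehicle library 4 stood apart from their groups. DT-061 library 3 was the farthest from the Vehicle libraries in all 10 genes, as it was in 71.5% of the table. Vehicle library 4 was the nearest to the DT-061 libraries in 7 of the 10, against 60.5% of the table. Without this pair of libraries 3 of the 10 genes rose and 6 fell by limma, Ogn did not pass, and the groups overlapped in none of the 10. This lack of overlap was fixed in advance. Leaving out libraries cannot make separate groups overlap, and Comp, the only gene that overlapped, did so through Vehicle library 4. The shares of the table without the pair are not given here, so these counts cannot be set against it. Markers of other cells moved with treatment and with these libraries. The 10 of 17 contractile smooth muscle markers in the table summed to 16748 to 25336 FPKM with DT-061, highest in library 3, and to 9233 to 14484 FPKM with vehicle. The 6 of 12 B and plasma cell markers summed to 60.95 to 129.7 FPKM with DT-061, lowest in library 3, and to 227 FPKM in Vehicle library 4, against 1264 to 5625 FPKM in the other Vehicle libraries. Of these sums, Xbp1 alone gave 49.8 to 65.6 FPKM with DT-061 and 80.5 to 125 FPKM with vehicle. The part of these markers in the results below was not tested. In bulk tissue, fewer cells of a type and less RNA per cell cannot be told apart.

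**Figure D1:**
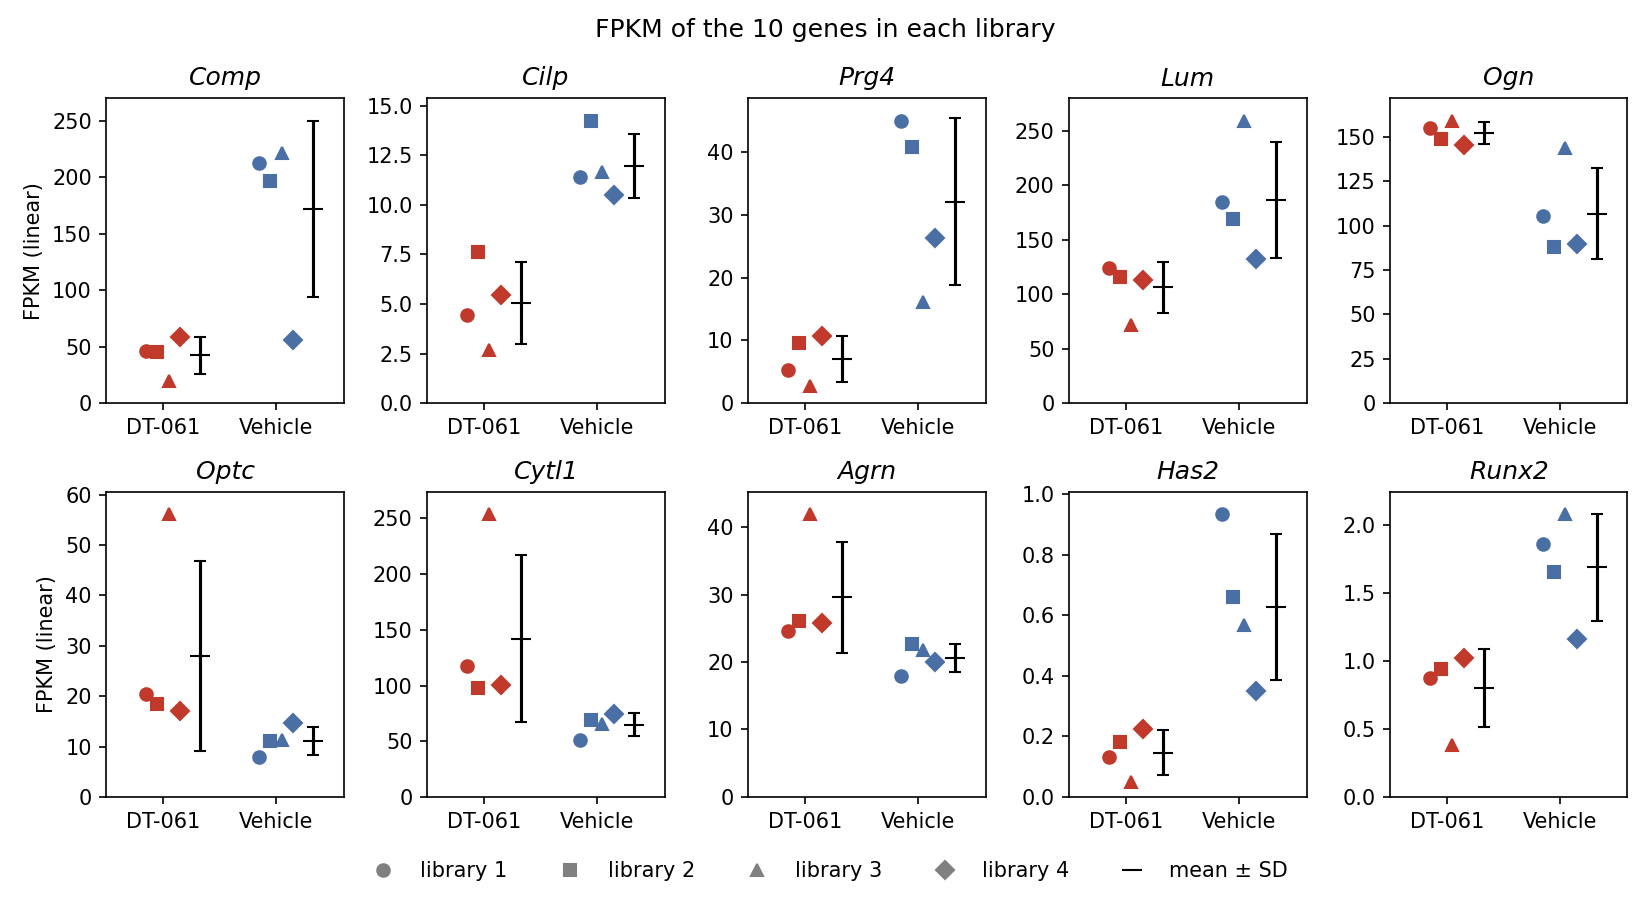
FPKM on linear axes of the 10 genes in each library, with DT-061 libraries in red on the left, Vehicle libraries in blue on the right, 1 marker shape per library number, and black bars for the mean ± SD (n = 4). DT-061 library 3 (triangle) stands at 253.7 FPKM of Cytl1 and 56.1 FPKM of Optc, above the other DT-061 libraries, and Vehicle library 4 (diamond) at 55.7 FPKM of Comp, below the other Vehicle libraries.

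The bases before the start of 5 of the genes are shown first. Optc and Cytl1 had the largest rises. The windows of Ogn, Cilp and Runx2 held the Runx core, the 6 letters TGTGGT that Runx factors such as Runx2 recognise. On the other strand the core reads ACCACA. The windows are the 250 bases upstream of the RefSeq start on GRCm38.p6, read on the strand of the gene, with the Runx core and the TATA letters (TATAAA) in capitals. Optc is chr1:133908000-133908249 on the minus strand, Cytl1 chr5:37735269-37735518, Ogn chr13:49607765-49608014 and Cilp chr9:65264930-65265179, all 3 on the plus strand. For Runx2 only 30 bases around the match are given, chr17:44814690-44814719 on the minus strand. In GENCODE the Runx2 gene reaches to 44814797, so this stretch is upstream of the RefSeq start used but inside the GENCODE gene.
Optc: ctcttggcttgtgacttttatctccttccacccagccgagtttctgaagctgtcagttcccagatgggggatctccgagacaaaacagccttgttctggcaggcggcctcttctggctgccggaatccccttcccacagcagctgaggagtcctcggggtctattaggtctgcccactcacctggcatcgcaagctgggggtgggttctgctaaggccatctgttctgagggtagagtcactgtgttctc
Cytl1: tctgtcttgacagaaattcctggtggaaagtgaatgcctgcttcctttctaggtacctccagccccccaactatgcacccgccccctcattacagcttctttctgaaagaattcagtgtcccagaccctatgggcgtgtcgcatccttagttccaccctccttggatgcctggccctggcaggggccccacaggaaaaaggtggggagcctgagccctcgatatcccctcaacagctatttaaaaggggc
Ogn: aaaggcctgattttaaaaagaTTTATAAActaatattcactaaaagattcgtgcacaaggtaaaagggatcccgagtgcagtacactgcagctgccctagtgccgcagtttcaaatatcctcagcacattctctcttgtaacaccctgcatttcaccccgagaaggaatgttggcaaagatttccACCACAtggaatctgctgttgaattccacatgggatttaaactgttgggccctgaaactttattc
Cilp: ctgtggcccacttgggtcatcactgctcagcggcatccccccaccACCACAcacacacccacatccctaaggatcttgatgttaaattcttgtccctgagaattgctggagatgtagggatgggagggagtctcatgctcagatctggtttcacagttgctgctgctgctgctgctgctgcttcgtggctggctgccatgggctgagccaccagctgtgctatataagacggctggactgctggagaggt
Runx2: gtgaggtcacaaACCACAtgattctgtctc

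Promoter windows were held for 6 of the 10 genes, with 2 for Agrn, so 7 in all. The Runx core was in 3 of these 7, those of Ogn, Cilp and Runx2, against 14.0% of the 32851 windows of all genes and 14.6% of the 1276 windows of table genes. It lay from position -65 to -60 in Ogn, -205 to -200 in Cilp and -80 to -75 in Runx2, counted back from the RefSeq start, each time on the strand opposite to the gene. These 3 genes did not move together, since Ogn rose and Cilp and Runx2 fell. TATAAA was found in the window of Ogn, on both strands in overlapping positions, and in 12.4% of all windows. The letters CCAAT were in none of the 7 and in 33.8% of all windows. Of the printed windows, Optc had a GC content of 56.8%, Cytl1 54.8%, Cilp 56.0% and Ogn 42.0%. A match describes letters and is not a binding site, and no match says only that these letters are not in this window.

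The cartilage glycoproteins Comp and Cilp and the large proteoglycan Prg4 were lower with DT-061. Comp is a member of the thrombospondin family that binds collagens in cartilage and tendon. It had 46.5, 45.3, 19.2 and 58.6 FPKM in DT-061 libraries 1 to 4, against 213, 197, 221 and 55.7 FPKM in Vehicle libraries 1 to 4. Vehicle library 4 lay among the DT-061 values, so that Comp was the only one of the 10 whose groups overlapped, while the other 3 Vehicle libraries stood far above every DT-061 library. The means were 42.4 ± 16.6 FPKM with DT-061 and 172 ± 77.9 FPKM with vehicle (SD, n = 4), and Comp fell by 1.91 ± 0.51 on the log2 scale (SE; limma adjusted p = 0.018). Without Vehicle library 4 the ratio of means was 4.96-fold, and without DT-061 library 3 it was 3.42-fold.

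Cilp encodes cartilage intermediate layer protein, a secreted protein that binds TGF-β1. It had 4.46, 7.62, 2.67 and 5.46 FPKM in the DT-061 libraries and 11.4, 14.3, 11.7 and 10.5 FPKM in the Vehicle libraries. All DT-061 values were below all Vehicle values, and Vehicle library 4 was close to the other Vehicle libraries here. Cilp was 2.37-fold lower, and its log2 change was -1.16 ± 0.25 (SE, limma adjusted p = 0.016). It did not pass when libraries were rescaled to the median of the table (the median rescaling), at -0.42, or with quantile normalization, at -0.57. These rescalings moved the median change of all genes by 0.69 and 0.56 log2 units, and rises made up 59.2% and 65.2% of calls in place of 31.9%, so each change is relative to the scaling. Both were computed on this table alone, where 894 genes were lower and 435 higher with DT-061. They raise changes in general, so a lost fall or a turn to higher is partly set by the rescaling itself.

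Prg4 encodes lubricin, the boundary lubricant of joints and tendons. It had 5.24, 9.63, 2.80 and 10.6 FPKM in the DT-061 libraries and 45.1, 40.9, 16.2 and 26.4 FPKM in the Vehicle libraries. Its groups did not overlap, and Vehicle library 3, rather than library 4, was the lowest Vehicle value. Its change of -2.07 ± 0.44 on the log2 scale (SE; limma adjusted p = 0.016) ranked 53rd of the 894 lower genes of the table. As deposited it was larger than that of Comp, but Comp had the larger change with quantile normalization (-1.79 against -1.70), without Vehicle library 4 (-2.39 against -2.13) and without both libraries that stood apart (-2.06 against -1.81). Prg4 shares exonic sequence with Tpr, which lies on the opposite strand, and whether the counting used strand was not stated, so reads of that overlap cannot be told apart.

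The small leucine-rich proteoglycans, a family of collagen-binding proteins, divided. Lum, which encodes the keratan sulfate proteoglycan lumican, had 124, 116, 71.8 and 113 FPKM in the DT-061 libraries and 185, 169, 259.6 and 132 FPKM in the Vehicle libraries. The lowest Vehicle value, in library 4, was just above the highest DT-061 value. Lum fell by 0.79 ± 0.24 on the log2 scale (SE; limma adjusted p = 0.020) and was 1.76-fold lower. With the median rescaling its change was 0.05 and did not pass.

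Ogn encodes osteoglycin (mimecan), known from bone and cornea. It had 155, 149, 159 and 145 FPKM in the DT-061 libraries and 105, 88.2, 143 and 89.6 FPKM in the Vehicle libraries. The 4 DT-061 values lay close together, with a coefficient of variation of 4.09%, the lowest of any of the 10 genes in either group, and Vehicle library 3 came within a few FPKM of them. Ogn was 1.43-fold higher, and its log2 change was 0.54 ± 0.16 (SE, limma adjusted p = 0.019).

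Optc encodes opticin, known from the vitreous of the eye and from cartilage. It had 20.4, 18.5, 56.1 and 17.0 FPKM in the DT-061 libraries and 7.83, 11.1, 11.2 and 14.6 FPKM in the Vehicle libraries. Library 3 held 3.02 times the mean of the other DT-061 libraries, and the remaining 3 were still above every Vehicle value. The log2 change was 1.10 ± 0.37 (SE; limma adjusted p = 0.025), the fifth largest among the 435 higher genes. Without DT-061 library 3 the ratio of means was 1.66-fold in place of 2.50-fold and the log2 change 0.71. Its call was lost without Vehicle library 1, 2 or 3, at limma adjusted p of 0.057, 0.0504 and 0.051.

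Lum and Ogn exchanged places between the groups. Ogn over Lum, a ratio of FPKM within a library that a common factor for the library leaves as it is, was 1.25, 1.28, 2.22 and 1.28 in the DT-061 libraries and 0.571, 0.521, 0.552 and 0.677 in the Vehicle libraries. Ogn was thus the higher of the pair in all 4 DT-061 libraries and Lum in all 4 Vehicle libraries, including library 4. The log2 ratio averaged 0.55 ± 0.40 in DT-061 libraries and -0.79 ± 0.16 in Vehicle libraries (SD, n = 4), a difference of 1.34 (exact two-sided permutation test, p = 0.029, the smallest that 70 splits allow). Lum also served for the other 3 ratios tested. Comp over Lum differed by -1.14 log2 units (exact permutation p = 0.057), Prg4 over Lum by -1.44 (exact permutation p = 0.086) and Cilp over Lum by -0.51 (exact permutation p = 0.14). None of the 4 passed after adjustment over the 4 ratios, with adjusted p of 0.11 for Ogn, Comp and Prg4 and 0.14 for Cilp (exact permutation test, n = 4 per group). So the lower Comp, Prg4 and Cilp were not shown to differ in size from the lower Lum. These genes come from a table named as significant between the same groups, so these p-values too are descriptive.

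**Figure D2:**
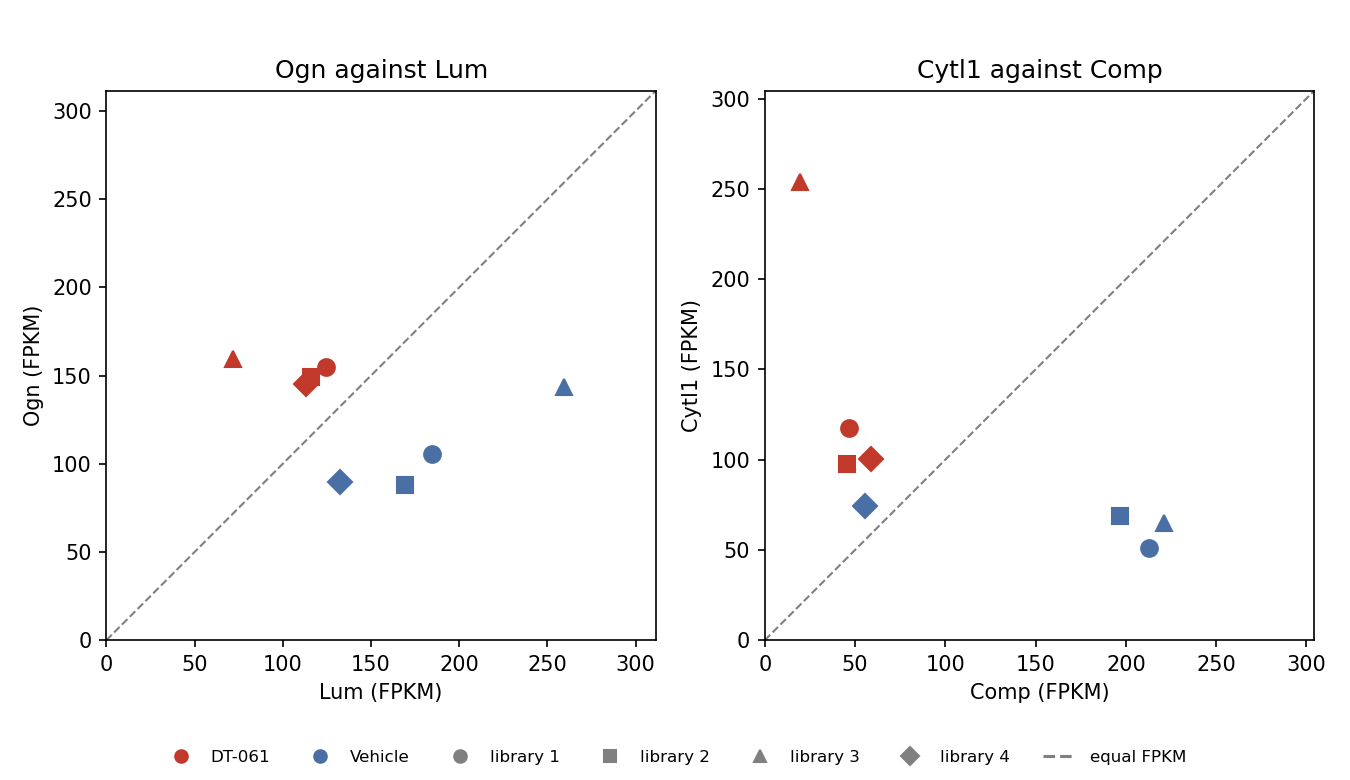
FPKM of Ogn against Lum (left) and of Cytl1 against Comp (right), 1 point per library, DT-061 in red and Vehicle in blue, with marker shape for the library number and a dashed line of equal FPKM. All 4 DT-061 libraries lie above the line for Ogn and Lum and all 4 Vehicle libraries below it, while for Cytl1 and Comp Vehicle library 4 lies above the line with the DT-061 libraries.

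Cytl1 and Agrn were higher with DT-061. Cytl1 encodes a small secreted protein, cytokine-like 1, that is known from cartilage and from CD34+ blood cells. It had 117, 97.4, 253.7 and 100.3 FPKM in the DT-061 libraries and 50.8, 68.9, 65.2 and 74.6 FPKM in the Vehicle libraries. DT-061 library 3 was again far above its group, and the groups did not overlap. The log2 change was 1.01 ± 0.30 (SE; limma adjusted p = 0.020), the tenth largest among the higher genes. Without DT-061 library 3 the ratio of means was 1.62-fold and the log2 change 0.70.

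Agrn encodes agrin, a heparan sulfate proteoglycan of basement membranes that clusters acetylcholine receptors at the neuromuscular junction. It had 24.6, 26.0, 41.9 and 25.8 FPKM in the DT-061 libraries and 17.9, 22.7, 21.8 and 20.0 FPKM in the Vehicle libraries. The groups did not overlap, but apart from DT-061 library 3 they were close. Its change of 0.47 ± 0.17 on the log2 scale (SE; limma adjusted p = 0.031) was 0.30 without DT-061 library 3, and the ratio of means was then 1.24-fold in place of 1.44-fold. Its call was lost without Vehicle library 1, 3 or 4, at limma adjusted p of 0.070, 0.054 and 0.054.

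Has2 and Runx2, the synthase and the regulator of the group, were measured at low levels. Has2 makes hyaluronan at the cell membrane. It had 0.131, 0.181, 0.0488 and 0.224 FPKM in the DT-061 libraries and 0.933, 0.659, 0.567 and 0.351 FPKM in the Vehicle libraries. These values came out as whole fragments in all 8 libraries (within 0.03), namely 8, 12, 3 and 14 fragments with DT-061 and 64, 62, 42 and 21 with vehicle. The FPKM per fragment was chosen to make low values whole, so this outcome is partly built in. The count of 3 in DT-061 library 3 has a 95% exact Poisson interval of 0.619 to 8.77 fragments, and the 21 of Vehicle library 4 one of 13.0 to 32.1, which cover counting error only. So every DT-061 library held fewer Has2 fragments than any Vehicle library, with the nearest pair, 14 and 21, inside each other's intervals. Its change of -0.50 ± 0.12 on the log2 scale (SE; limma adjusted p = 0.016) understates the 4.29-fold ratio of means, because 1 is added to values below 1. With quantile normalization Has2 turned to higher, at 0.09, and did not pass. Has2os lies on the opposite strand of Has2 and shares exonic sequence with it.

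Runx2 is the transcription factor of osteoblasts and hypertrophic chondrocytes. It had 0.873, 0.940, 0.384 and 1.02 FPKM in the DT-061 libraries and 1.86, 1.66, 2.08 and 1.16 FPKM in the Vehicle libraries. The groups did not overlap, and Vehicle library 4 came nearest to the DT-061 libraries. Runx2 was 2.10-fold lower, and its log2 change was -0.58 ± 0.19 (SE, limma adjusted p = 0.023). It turned to higher with quantile normalization, at 0.33, and did not pass there, with the median rescaling (-0.15) or without Vehicle library 3 (limma adjusted p = 0.057). Runx2os1 lies on its opposite strand and shares exonic sequence with it.

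**Figure D3:**
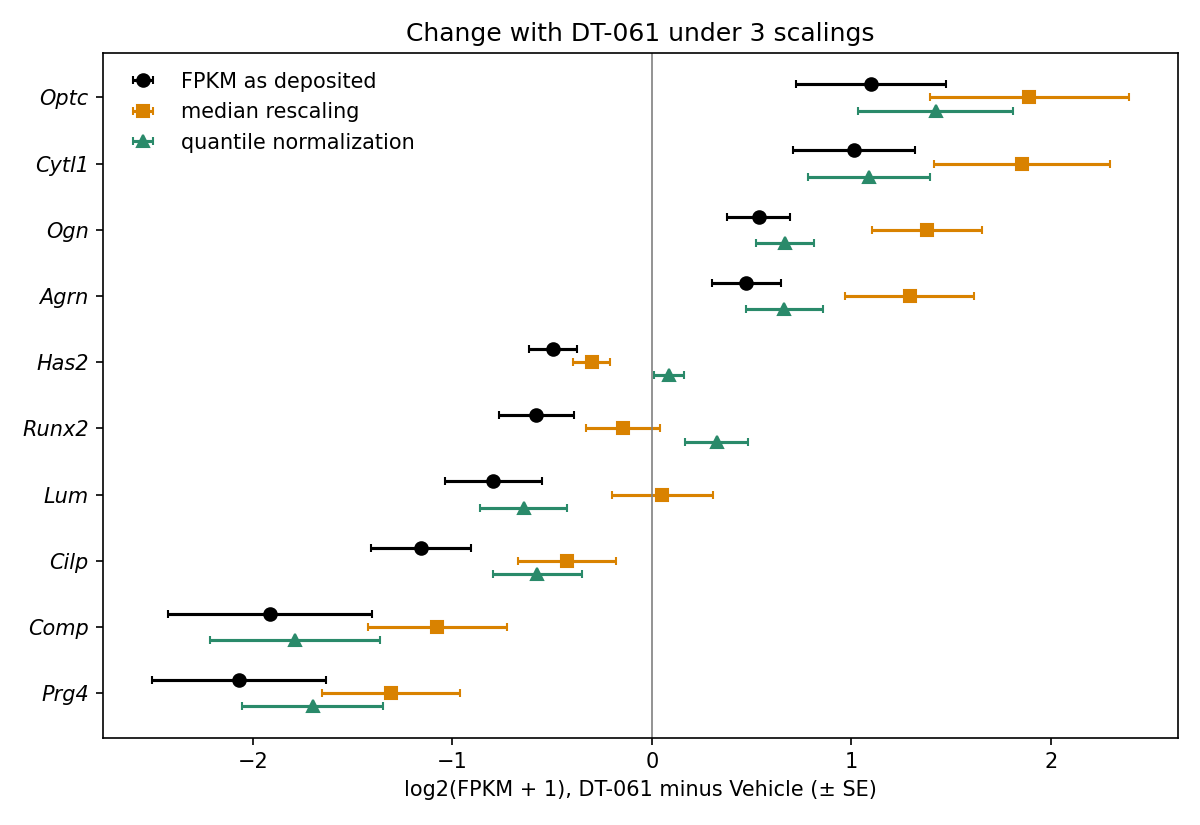
Mean log2(FPKM + 1) with DT-061 minus that with vehicle for each gene (points, with SE bars), for FPKM as deposited and after 2 rescalings of the libraries. Optc, Cytl1, Ogn and Agrn are above 0 and Comp, Prg4 and Cilp below 0 in all 3, while Lum crosses 0 with the median rescaling and Has2 and Runx2 with quantile normalization.

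The order of levels among the genes also differed between groups. With DT-061 it ran Ogn (mean 152 FPKM), Cytl1 (142), Lum (106), Comp (42.4), Agrn (29.6), Optc (28.0), Prg4 (7.08), Cilp (5.05), Runx2 (0.804) and Has2 (0.146). With vehicle it ran Lum (186), Comp (172), Ogn (107), Cytl1 (64.9), Prg4 (32.1), Agrn (20.6), Cilp (12.0), Optc (11.2), Runx2 (1.69) and Has2 (0.628). Not all neighbours in these orders were separate. With DT-061 the ranges overlapped for Ogn and Cytl1, Cytl1 and Lum, Comp and Agrn, Agrn and Optc, and Prg4 and Cilp. With vehicle they overlapped for Lum and Comp, Comp and Ogn, Prg4 and Agrn, and Cilp and Optc. The levels per length therefore form tiers, with Ogn, Lum and Cytl1 above Agrn and Optc, and Runx2 and Has2 at the bottom, in both groups.

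The genes whose pattern over the 8 libraries was closest differed between members. Closeness is the root mean square distance of log2(FPKM + 1), each gene centred on its own mean, among 1092 other table genes with a mean of at least 1 FPKM. Closest to Comp were the antigen presentation genes Cd74 (distance 0.24), H2-Ab1 (0.26) and H2-Aa (0.26). The values of H2-Ab1 and H2-Aa are uncertain where similar H2 genes share reads. Closest to Prg4 were the acute phase gene Serpina3n (0.20) and the chemokine genes Ccl2 (0.26) and Ccl7 (0.30). Closest to Cytl1 were Myl9, a myosin light chain of smooth muscle (0.16), B230312C02Rik (0.16) and the ephrin receptor gene Epha1 (0.16). The distance reads both the treatment and the libraries that stood apart.

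Of the 170 genes on 7 matrix lists, 24 were in the table, 14 of them besides the 10, and of these 14, 1 rose, 11 fell and 2 did not pass, with a median log2 change of -0.87, where 30.4% of the table was called higher and 65.0% lower. With the median rescaling 5 of the 14 fell (Cd74, Thbs4, Col11a1, Runx1 and Chil1), and with quantile normalization 4 fell (Cd74, Srgn, Mmp2 and Timp1). The count of 11 thus depends on the scaling, and both rescalings raise changes in this table of mostly lower genes. Of 17 small leucine-rich proteoglycan genes, 4 were in the table: Lum, Ogn, Optc and Podnl1, which had 0.185 ± 0.0478 FPKM with DT-061 and 0.660 ± 0.520 FPKM with vehicle (SD, n = 4) and did not pass (limma adjusted p = 0.052). None of the 8 aggregating proteoglycan and link protein genes was in it. Hyaluronan genes gave 3 of 19. Beside Has2, Ugdh, which makes the UDP-glucuronate used for hyaluronan and other sugar chains, was lower at 23.4 ± 3.14 FPKM with DT-061 against 37.2 ± 7.95 FPKM with vehicle, or -0.63 on the log2 scale, at an adjusted p of 0.018 in limma. Hyal1, a hyaluronidase that degrades hyaluronan in lysosomes, rose to 13.1 ± 3.51 FPKM with DT-061, against 8.62 ± 1.21 FPKM with vehicle (limma adjusted p = 0.025). Hyal1 passed as higher with both rescalings. Ugdh turned to higher with the median rescaling, at 0.19. With quantile normalization neither Has2 (0.09, limma adjusted p = 0.36) nor Ugdh (-0.53, limma adjusted p = 0.081) passed, so no hyaluronan gene fell there.

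Cell surface and basement membrane proteoglycans gave 4 of 20. Beside Agrn these were Srgn, which encodes serglycin of blood cell granules, the syndecan gene Sdc1 and Cd74, the invariant chain, a form of which carries a chondroitin sulfate chain. Their log2 changes were -1.25, -0.47 and -1.92, and Sdc1 turned to higher with the median rescaling, at 0.34, where Srgn did not pass either (-0.44, limma adjusted p = 0.068). With quantile normalization Sdc1 did not pass (-0.19, limma adjusted p = 0.30). Of 40 cartilage and bone genes 9 were in the table, and 8 of the 9 fell, the exception being Cytl1. With the largest log2 changes beside Prg4 and Comp were Runx1, a Runx factor of blood and early cartilage (-1.27), and the thrombospondin gene Thbs4 (-1.16). Runx1 averaged 1.91 ± 1.07 FPKM in DT-061 libraries and 5.73 ± 1.67 FPKM in Vehicle libraries (SD, n = 4). The collagen gene Col11a1 (-0.72) and the chitinase-like gene Chil1 (-0.86) complete this list and are given although the naming rule left them out and were picked after their values were seen. Chil1 was listed at 0 in DT-061 library 2. Adding 1 to low values understates Thbs4, Col11a1 and Chil1. By ratio of means they were 5.53-fold, 5.02-fold and 28.1-fold lower, against 4.54-fold for Prg4. Thbs4 averaged 0.446 FPKM with DT-061 and 2.47 FPKM with vehicle, Col11a1 0.212 and 1.07 FPKM, and Chil1 0.0373 and 1.05 FPKM. The groups overlapped for Col11a1. With quantile normalization only 2 of the 9 fell and 1 rose. Of 46 glycosaminoglycan synthesis genes only the chondroitin sulfotransferase gene Chst11 was in the table, at -0.88, and did not pass with either rescaling. Of 20 proteoglycan-cleaving protease and inhibitor genes there were 3: Mmp2 (-0.74) and Timp1 (-1.60) fell and Mmp13 (-0.91) did not pass. With the median rescaling Mmp2 turned to higher, at 0.10, and Timp1 did not pass (-0.75, limma adjusted p = 0.073), so none of the 3 fell there.

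**Figure D4:**
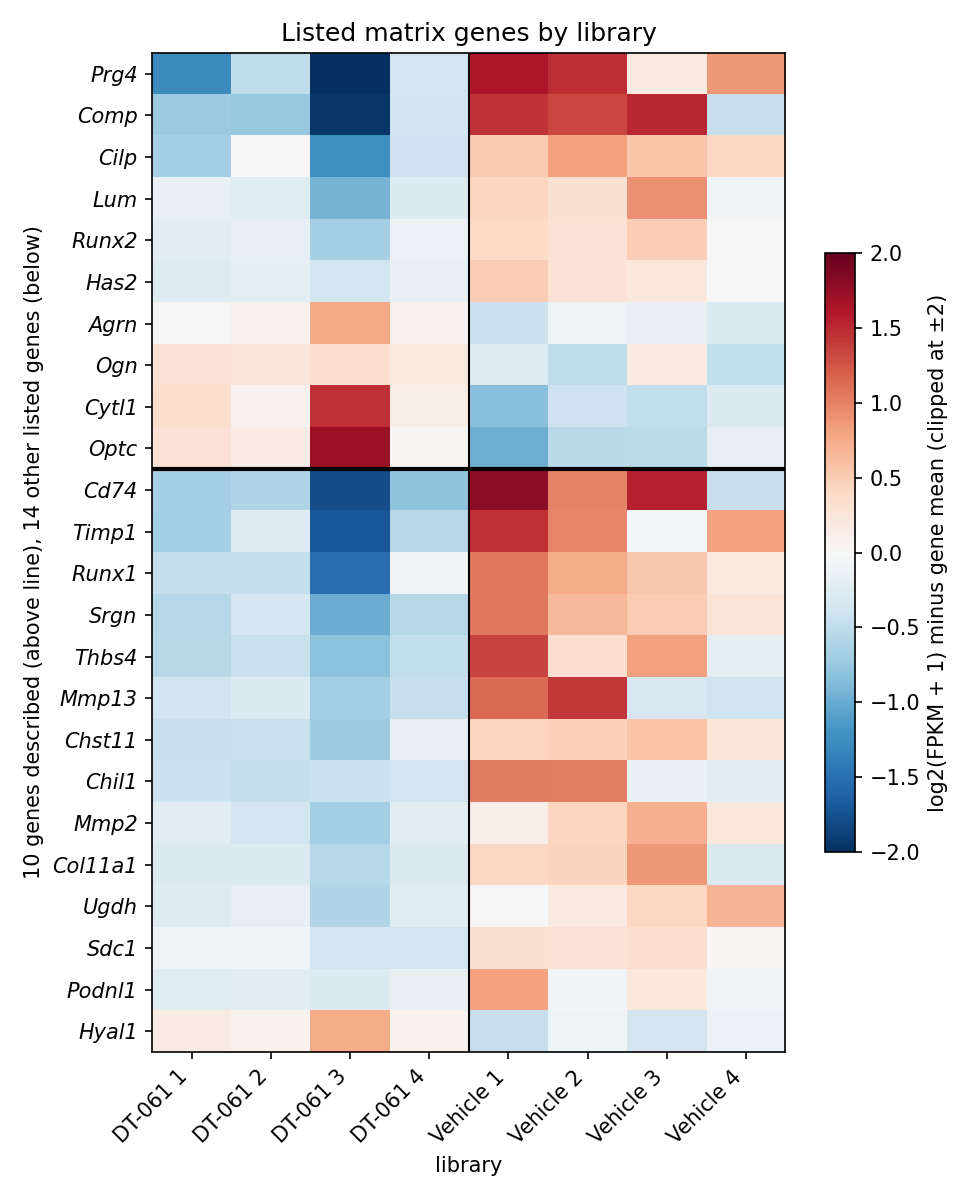
log2(FPKM + 1) of each gene minus its mean over the 8 libraries (colour, clipped at 2 units either way), with DT-061 libraries on the left, the 10 genes above the line and the 14 other listed genes below it. DT-061 library 3 holds the strongest colours among the DT-061 libraries, as for Prg4, Comp, Cytl1 and Optc, and Vehicle library 4 is on the DT-061 side for Comp and Cd74.

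The marker lists bear on which cells were sampled. The labelled tissue, ascending aorta, was checked against contractile smooth muscle genes, of which Acta2 had a mean of 7256 FPKM with DT-061 and 4845 FPKM with vehicle. None of the 14 chondrocyte markers (Acan, Col2a1 and Sox9 among them) was in the table, nor any of 10 endothelial, 8 mesothelium or 12 striated muscle markers, so these were not analysed here. Of 20 fibroblast markers 4 were present: Gsn rose, and Cthrc1, Sfrp4 and Ly6a fell, with log2 changes of 0.53, -2.15, -1.48 and -0.97. The summed level of these 4 was 877 to 1103 FPKM with DT-061, most of it Gsn, and 802 to 968 FPKM with vehicle. Of 16 macrophage and monocyte markers 3 were present and fell, with sums of 5.83 to 22.9 FPKM with DT-061 against 24.5 to 125 FPKM with vehicle. Of 15 T and NK cell markers 11 were present, 10 fell and 1 did not pass, with sums of 2.37 to 8.55 FPKM with DT-061 against 6.57 to 78.1 FPKM with vehicle. Of 10 neutrophil and mast cell markers 3 were present and fell, with sums of 0.569 to 2.46 FPKM with DT-061 against 1.46 to 24.8 FPKM with vehicle. S100a9 was the only marker listed at 0 in any library. Of 10 fat cell markers Cfd alone was present and fell, at 72.4 to 329.7 FPKM with DT-061 against 489 to 1391 FPKM with vehicle. As deposited, all 10 contractile markers rose and all 6 B and plasma cell markers fell. These calls depend on the scaling. With quantile normalization 8 of the 10 contractile markers rose and 1 was lower, 4 of the 6 B and plasma cell markers fell, and none of the 11 T and NK cell markers (3 were higher) or of the 3 neutrophil and mast cell markers fell. With the median rescaling 3 of the 6 B and plasma cell markers fell and 1 was higher, 8 of the 11 T and NK cell markers fell, and 1 of the 4 fibroblast markers fell. The 3 macrophage and monocyte markers fell with both rescalings. In each immune list the lowest DT-061 sum was in library 3 and the lowest Vehicle sum in library 4, the libraries that stood apart for Comp, Cytl1 and Optc.

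The genes lie on 9 chromosomes of GRCm38. Those of the small leucine-rich family have relatives of the same family beside them. Lum (ENSMUSG00000036446, chr10:97565128-97572703) is near Dcn, Kera and Epyc, and Optc (ENSMUSG00000010311, chr1:133897199-133907999) near Prelp and Fmod. Ogn (ENSMUSG00000021390, chr13:49608046-49624501) lies within Cenpp and near Omd, Aspn and Ecm2. Of these, Ecm2, a gene for an extracellular matrix protein with leucine-rich repeats, was the only one in the table. Ecm2 rose with Ogn, to 40.7 ± 4.10 FPKM with DT-061, against 26.3 ± 4.44 FPKM with vehicle (SD, n = 4), or 0.62 on the log2 scale, at an adjusted p of 0.016 in limma. Comp is ENSMUSG00000031849 (chr8:70373558-70382066), Cilp ENSMUSG00000042254 (chr9:65265180-65280605) and Prg4 ENSMUSG00000006014 (chr1:150449412-150466165). Cytl1 is ENSMUSG00000062329 (chr5:37735519-37739820) and Agrn ENSMUSG00000041936 (chr4:156165290-156197488). Has2 is ENSMUSG00000022367 (chr15:56665627-56694539) and Runx2 ENSMUSG00000039153 (chr17:44495987-44814797). Within 250 kb of Comp, which fell, the table genes Borcs8, Crtc1 and Klhl26 rose, by 0.27, 0.33 and 0.27 on the log2 scale. Within 250 kb of Agrn, the interferon-induced gene Isg15 changed by -1.41 on the log2 scale, at an adjusted p of 0.030 in limma, while Agrn rose.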

How the data were processed

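Poly-A RNA of ascending aortas was sequenced in 8 libraries, 4 per group. Per the submitters' processing notes, the tools included featureCounts 1.5.0-p3, HISAT2 2.0.5 and StringTie 1.3.3b, with build mm10. The authors deposited FPKM values of 1329 genes that the table's name calls significant. In the sources used here, the strand setting and the FPKM total are not given. Symbols were found for 1328 genes, and lengths came from GENCODE M21.

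limma 3.58.1 (R 4.3.3; trend and robust options) was run on log2(FPKM + 1) over the whole table, with no covariate and Benjamini-Hochberg adjustment at 0.05; it was tested on simulated data. This scale understates changes of low genes. Ratios within libraries used a pseudocount of 0.1 and exact permutation tests (SciPy 1.17.1). Depth was estimated from FPKM steps: 91.7 to 100% of 37 to 68 low values per library were whole multiples (up to 60, within 0.03), against 3.51 to 5.56% at the median step. These values were selected with the step itself in view.

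The 10 genes and all lists were chosen with earlier results of these data known. Named besides them were listed genes in the table (all where a list had 5 or fewer, otherwise the 4 with the largest change) and the 3 closest patterns to Comp, Prg4 and Cytl1. Promoter sequences are RefSeq's (GRCm38.p6). Alternatives were another pseudocount (0.1), a minimum mean of 1 FPKM, no trend or robust option, median rescaling, quantile normalization, leaving out libraries, and a replicate block.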

Additional observations from a re-analysis of the deposited data

Results flagged for a closer look

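In 4 of the genes a single library stood apart from the other 3 of its group by Dixon's test. This test compares the gap to the nearest value with the whole range. Chance alone gives such flags in a small share of groups. The share of table genes flagged in this way is not given here. The flags are therefore not shown to be particular to these genes. DT-061 library 3 was the farthest from the Vehicle libraries in 71.5% of the table. In DT-061 libraries, library 3 was far above the others for Optc, at 56.1 FPKM (gap over range 0.914), for Cytl1, at 253.7 FPKM (0.872), and for Agrn, at 41.9 FPKM (0.919). In Vehicle libraries, library 4 was far below the others for Comp, at 55.7 FPKM (0.853). DT-061 library 3 also had the highest summed contractile smooth muscle markers, at 25336 FPKM, and Vehicle library 4 the lowest summed B and plasma cell markers of its group, at 227 FPKM. The part of these markers in the 4 values was not tested.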

How the results depend on the processing

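Of 149 alternative values of the 10 log2 changes, 133 kept direction and call, 13 lost the call and 3 turned sign: Lum to 0.051 with the median rescaling, and Has2 to 0.088 and Runx2 to 0.33 with quantile normalization. The number of genes that fell was 6, and 3 with the median rescaling or quantile normalization. Both rescalings used only this table of mostly lower genes and raise changes in general, so fewer falls are partly built in. The number whose groups did not overlap was 9, and 5 with the median rescaling. The share of table genes without overlap under that rescaling is not given here, so this 5 cannot be set against it. Leaving out 1 library at a time gave 2 to 4 genes that rose (2 without Vehicle library 1 or Vehicle library 3), 5 to 6 that fell and 9 to 10 that did not overlap. Leaving out a library cannot make separate groups overlap, so the last count could not fall below 9. The cause of the changes in these counts was not tested. The 4 within-library ratios kept direction. None passed in any alternative, but with a library left out the exact permutation test has too few splits to reach 0.05, so this says nothing there. With all libraries kept, a ratio that alone reaches the smallest p cannot pass after adjustment either. Deviations of libraries with the same number had correlations of 0.18, -0.11, -0.05 and -0.47. These gave no clear sign that the numbers pair the libraries, but they cannot exclude it. With the replicate block 4 genes rose and 4 fell, and Lum (log2 change -0.79, limma adjusted p = 0.053) and Runx2 (-0.58, limma adjusted p = 0.071) did not pass. The shares of the table with a library left out or with the block are not given here. Over the table, 434 genes rose and 299 fell with the median rescaling, and 394 rose and 210 fell with quantile normalization. Depth limits Has2, which rests on 3 to 64 fragments a library.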

Other observations

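Other pairs of genes, chosen after their values were seen and not tested, also exchanged places. Cytl1 over Comp, as a ratio of FPKM, was 2.53, 2.15, 13.2 and 1.71 in the DT-061 libraries and 0.239, 0.350, 0.295 and 1.34 in the Vehicle libraries, where library 4 alone was above 1. Optc over Prg4 was 3.88, 1.92, 20.1 and 1.59 in the DT-061 libraries and 0.174, 0.271, 0.693 and 0.554 in the Vehicle libraries, so that Optc was the higher of the pair in every DT-061 library and Prg4 in every Vehicle library.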
